A study of Mus musculus with 6 samples.

Results

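Beta-catenin reaches DNA through a small set of nuclear partners, and 8 of their genes are described here in embryonic mouse kidneys: Tcf7l1, Tcf7l2, Bcl9, Bcl9l, Pygo1, Pygo2, Ctnnbip1 and Chd8. They were taken by symbol, as every probe set whose platform annotation gives exactly 1 gene and that gene is on this list, which found 19 of the 45101 probe sets on the array, for 8 of the 18193 genes that have such a probe set. There were 3 arrays of beta-catenin knockout kidneys and 3 of normal kidneys, all at embryonic day 12.5. In the knockout kidneys a Ctnnb1 allele with loxP sites around exons 2 to 6 met Hoxb7-Cre:Gfp, a Cre recombinase made where Hoxb7 is on, that is in the Wolffian duct and its outgrowth, the ureteric bud. All other cells of these kidneys keep the gene, so the arrays read whole organs in which 1 tissue was targeted. For the normal kidneys the labels give no strain, no genotype at the loxP allele and no word on whether they carry the recombinase. The kidneys of a group were sorted into vials at random and the number of animals is not given, so the p-values reflect only how these samples varied, which may in part be technical. The title and source name of the knockout samples say knockout, whereas their description field repeats the wording for normal kidneys, and every direction below follows the titles.

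When a Wnt ligand stabilises beta-catenin, the protein enters the nucleus and binds TCF/LEF factors, which sit on Wnt-responsive enhancers and hold them silent with Groucho/TLE corepressors when beta-catenin is absent. BCL9 proteins dock on beta-catenin and carry Pygopus, whose PHD finger binds methylated histone tails, so that the chain from TCF to chromatin is complete. In the kidney, canonical Wnt signals from the ureteric bud start nephron formation in the mesenchyme and keep the bud tips branching, and in mice loss of both Pygo genes is known to disturb that branching.

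No partner gene passed the test for a difference between knockout and normal kidneys. Of the 19 probe sets 16 lay above a filter on dim signals, and 0 of these 16 passed, against 157 (0.581%; 0.381% higher and 0.200% lower in the knockout) of all 27022 probe sets tested (limma, Benjamini-Hochberg adjusted p under 0.05 over all of them). The smallest adjusted p among the 16 was 0.32 (limma). At an unadjusted limma p under 0.05 there were 4 of 16, 2 higher and 2 lower in the knockout, where 11.5% of all probe sets tested met that mark (5.74% higher and 5.72% lower). The array groups did not overlap in 3 of 16, 2 higher and 1 lower, against 17.9% of all probe sets tested (9.17% higher and 8.69% lower), so this share was near the background. Among the 16, 6 differences were positive and 10 negative, with a median of -0.10 on the log2 scale beside -0.011 over all probe sets tested. The count of 157 was 55, 59 and 47 with knockout replicate 1, 2 or 3 left out and 95 with normal replicate 3 left out, and the member count was 0 in each of these fits. The member count at an unadjusted limma p under 0.05 was 2 without knockout replicate 1 or normal replicate 1 and 1 without knockout replicate 2. It was 3 without knockout replicate 3 or normal replicate 2 and 5 without normal replicate 3. Over all 27022 probe sets the count at that mark was 3095 with all arrays. It was 2652, 1991 and 2235 with knockout replicate 1, 2 or 3 left out. With normal replicate 1, 2 or 3 left out it was 2884, 3116 and 3536.

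Signals are linear values made by the authors with MAS5, which scales each array as a whole, and a value has no unit beyond that scale. The filter kept probe sets whose mean log2 signal over all 6 arrays exceeded a signal of 14.7. The brightest member probe set, of Tcf7l1, lay at percentile 91.5 of all probe sets by mean log2 signal and the dimmest kept one, of Chd8, at percentile 46.4. Probe sets bind their targets with different strength, so levels are not compared between genes or between probe sets of 1 gene. In whole-kidney RNA, fewer cells of a type and less RNA per cell cannot be told apart. Ctnnb1 itself read 6777.1, 6779.3 and 6585.5 in knockout replicates 1 to 3 and 5706.6, 6760.2 and 6548.6 in normal replicates 1 to 3 by its brightest probe set (log2 difference 0.087, SE 0.08; limma adjusted p = 0.695). These values do not check the labels, since where its probes lie relative to the deleted exons was not analysed here.

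The kidney markers were present in both groups. Summed over 11 measured ureteric bud markers, the signal ran from 3510 to 5431 in knockout arrays and from 4166 to 5076 in normal arrays, and 9 of the 11 were lower in the knockout mean. None passed, and those with an unadjusted limma p under 0.05 were Lhx1 and Emx2, with log2 differences of -0.43 and -0.54. Calb1, 1 of the 2 that were higher, had a large share of the sum, at 2301.5, 1203.8 and 1940.3 in the knockout and 1345.3, 1913 and 1468.7 in normal kidneys. The part of these markers in the members' values was not tested. Over 8 nephron progenitor markers the sum ran from 4579 to 5267 in knockout and from 4843 to 5294 in normal arrays. Of these, 4 were higher and 4 lower in the knockout mean, and none passed. Meox1 (log2 difference 0.66) and Osr1 (0.61) had an unadjusted limma p under 0.05, while Gdnf stood at -0.52 and Six2 at -0.49. Of 5 measured renal stroma markers none passed, and Pdgfrb (-0.33) and Meis1 (0.30) had an unadjusted limma p under 0.05. Hoxb7 stayed under the filter and read at most 7.6. Tissue from outside the kidney was uneven between arrays. The 8 measured skeletal muscle markers summed to 726.7, 3286 and 334.5 in knockout replicates 1 to 3, against 255.5, 257.8 and 290 in normal replicates 1 to 3, and each of the 8 was higher in the knockout mean. The 8 measured chromaffin and neural markers summed to 1280, 649.4 and 316.7 in knockout replicates 1 to 3, against 1722, 275.8 and 470 in normal replicates 1 to 3. For 8 macrophage markers the sums were 890.9, 1230 and 930.4 in the knockout and 927.7, 419.8 and 727.9 in normal kidneys. The sum over 7 erythroid markers, most of it Hbb-y and Hba-x, ran from 15820 to 22190 in knockout arrays and from 12650 to 18200 in normal arrays. That over 7 endothelial markers ran from 1226 to 1405 in knockout and from 1151 to 1877 in normal arrays. In the knockout mean 7 of the 8 macrophage and 6 of the 7 erythroid markers were higher, and 5 of the 7 endothelial markers lower. None passed. At an unadjusted limma p under 0.05 there were 4 skeletal muscle, 3 macrophage and 3 erythroid markers, all higher. There were 2 endothelial ones, both lower, and 0 chromaffin and neural ones. Over all genes tested 6.14% were higher and 5.57% lower at that mark. The muscle markers had a median log2 difference of 1.63, the largest of the 8 lists. No measured marker of the 8 lists, stroma included, read 0 on any array.

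The TCF factors come first. Tcf7l2 encodes TCF4, the TCF best known for activating Wnt targets in epithelia, and Tcf7l1 encodes TCF3, which acts mostly as a repressor. Their start regions are shown because Tcf7l2 had the smallest p of all members, because its probe sets differed in sign, and because RefSeq lists 2 starts for it, 153.5 kb apart, against 1 for Tcf7l1. Each line holds 250 bases before to 50 after an annotated start in GRCm38.p6, 5′ to 3′, from RefSeq, with capitals for a TCF/LEF core motif.

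Tcf7l1, chr6:72788996-72789295, minus strand: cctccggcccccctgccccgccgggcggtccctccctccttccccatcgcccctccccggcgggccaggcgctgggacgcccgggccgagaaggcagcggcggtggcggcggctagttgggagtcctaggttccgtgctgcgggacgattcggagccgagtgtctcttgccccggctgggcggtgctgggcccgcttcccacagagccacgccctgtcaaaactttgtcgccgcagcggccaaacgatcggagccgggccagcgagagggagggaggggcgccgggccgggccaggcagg
Tcf7l2, upstream start, chr19:55741560-55741859, plus strand: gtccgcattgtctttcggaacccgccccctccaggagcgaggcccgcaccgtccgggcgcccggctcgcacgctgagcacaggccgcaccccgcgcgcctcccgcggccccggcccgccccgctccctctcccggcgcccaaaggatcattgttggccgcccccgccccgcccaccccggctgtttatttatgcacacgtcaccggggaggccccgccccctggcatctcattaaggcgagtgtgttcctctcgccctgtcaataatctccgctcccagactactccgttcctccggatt
Tcf7l2, downstream start, chr19:55895071-55895370, plus strand: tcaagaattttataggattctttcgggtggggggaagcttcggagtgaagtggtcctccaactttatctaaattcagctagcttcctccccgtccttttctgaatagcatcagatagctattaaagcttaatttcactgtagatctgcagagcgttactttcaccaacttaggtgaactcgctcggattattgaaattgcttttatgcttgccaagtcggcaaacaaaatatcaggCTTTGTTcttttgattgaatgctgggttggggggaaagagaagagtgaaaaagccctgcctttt

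The motif searched was CTTTG followed directly by AA, AT, TA or TT, on either strand. It occurs in 16.9% of all 32851 such windows in the table. It was found in 1 of the 11 windows of 7 member genes, once, in the downstream Tcf7l2 window. That window holds 42.0% G and C, against 70.0% in the upstream one and 75.3% in that of Tcf7l1. A match is a description of the letters and says nothing of binding in these kidneys, and which probe sets read transcripts from which start was not analysed here.

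Tcf7l2 was measured by 4 probe sets above the filter, which differed in sign. The brightest, 1429427_s_at, read 189.8, 179.9 and 133.4 in knockout replicates 1 to 3, against 119, 92.1 and 127.4 in normal replicates 1 to 3. All knockout arrays lay above all normal arrays, though knockout replicate 3 exceeded normal replicate 3 by little. The log2 difference was 0.57 (SE 0.19, 95% interval from 0.15 to 0.99), a 1.48-fold higher level that did not pass the test (limma adjusted p = 0.32). In the array's naming, the suffix _s marks probes that can match several transcripts, in part of other genes, so this probe set may not read Tcf7l2 alone. Probe set 1429428_at was designed from the same expressed sequence as that one. It read 118.6, 115.6 and 110.1 in knockout kidneys and 134.6, 113.9 and 127 in normal kidneys, overlapping groups with a log2 difference of -0.12 (SE 0.14, 95% interval from -0.43 to 0.19), which was -0.068 with normal replicate 1 left out and -0.19 with normal replicate 2 left out.

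The remaining Tcf7l2 probe sets carry the suffix _a, for probes shared by transcripts of 1 gene. For 1425229_a_at the signals were 69.5, 54 and 43.2 in the knockout and 47.8, 43.8 and 44.5 in normal kidneys, a log2 difference of 0.27 (SE 0.23). Knockout replicate 1 was the highest array and knockout replicate 3 the lowest, so the groups overlapped. The difference was 0.091 with knockout replicate 1 left out and 0.43 with knockout replicate 3 left out. For 1426639_a_at, the dimmest, they were 21.8, 23.3 and 19.7 against 36.7, 15.9 and 22.8 in normal kidneys (log2 difference -0.14, SE 0.36). Averaged over its 4 probe sets, Tcf7l2 differed by 0.14 on the log2 scale (SE 0.18, limma adjusted p = 0.791). On 1429427_s_at and 1425229_a_at alike, knockout replicate 3 was the lowest knockout array, as it was for the muscle and the chromaffin and neural sums given above. Both replicates 1 had the highest chromaffin and neural sums of their groups. With both left out, the difference of 1429427_s_at was 0.52 (limma adjusted p = 0.546). Knockout replicate 2, with the highest muscle sum, stayed in that fit. The part of these tissues in the Tcf7l2 values was not tested.

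**Figure D1:**
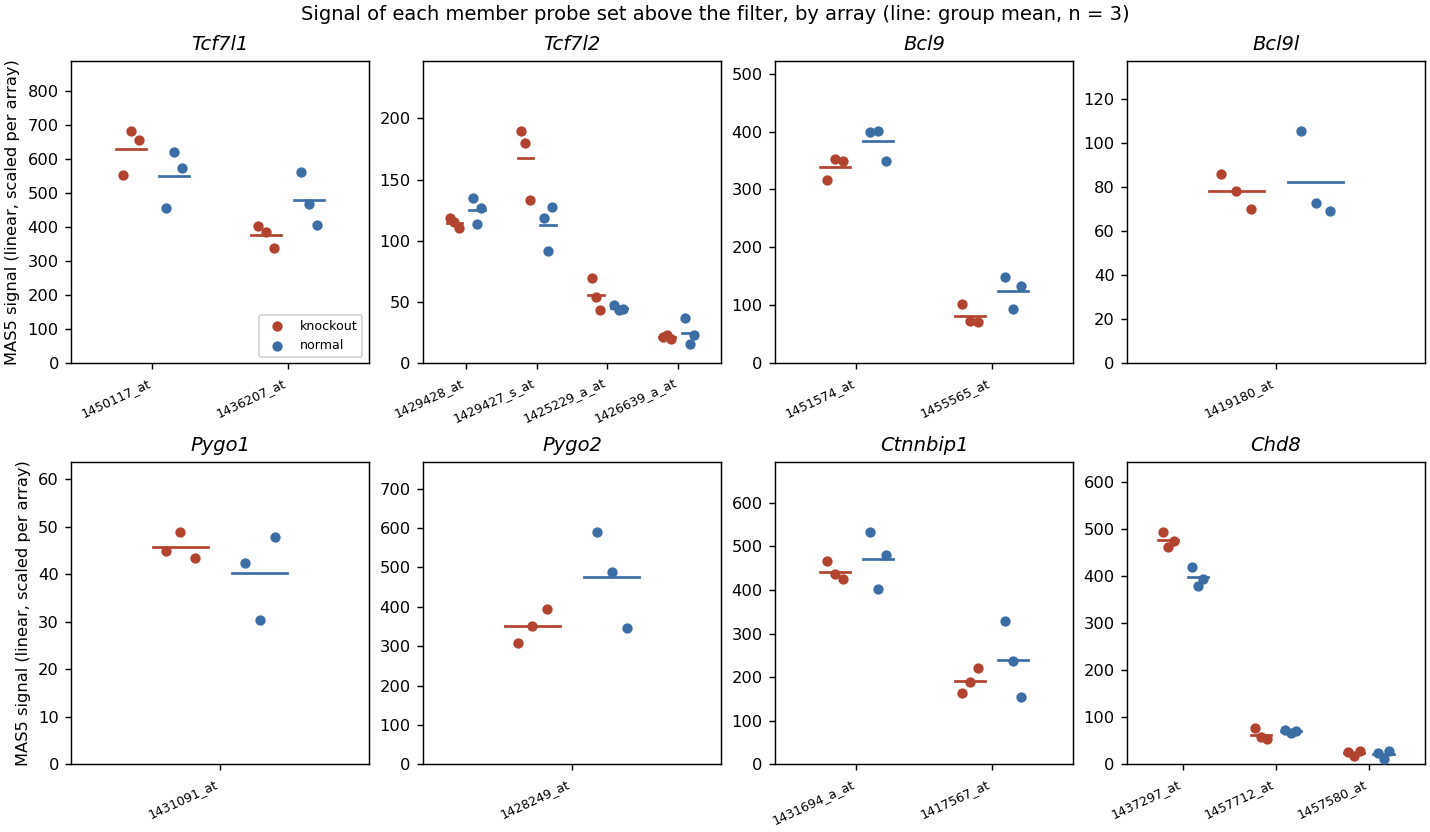
MAS5 signal (linear, scaled per array) of each of the 16 member probe sets above the filter, with a panel per gene. Points are arrays, 3 knockout in red at the left and 3 normal in blue at the right of each pair, and lines are group means. The groups are apart for Tcf7l2 1429427_s_at and Chd8 1437297_at (knockout above normal) and for Tcf7l1 1436207_at (knockout below normal), and overlap for the others.

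Whether the signal of 1 probe set moved against that of another of the same gene was tested within arrays, a comparison chosen after the values were seen. The log2 ratio of 1429427_s_at to 1429428_at was 0.68, 0.64 and 0.28 in knockout replicates 1 to 3, against -0.18, -0.31 and 0.0045 in normal replicates 1 to 3. The knockout arrays were all higher, by a mean of 0.69 (exact two-sided permutation p = 0.1, the smallest that 3 against 3 arrays allow; 0.267 after adjustment over 8 such ratios). The ratio to the dim 1426639_a_at was also higher in all knockout arrays, by a mean of 0.71, and the ratio to 1425229_a_at was higher by 0.30 with overlapping groups. All of these ratios share 1429427_s_at, whose groups did not overlap by themselves, so they are not independent of each other.

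Tcf7l1 had 2 probe sets above the filter with opposite signs. The brighter, 1450117_at, read 553.6, 684.1 and 658.4 in knockout kidneys, against 456.9, 621.4 and 574.6 in normal kidneys. The groups overlapped, with normal replicate 1 the lowest array, and the log2 difference was 0.20 (SE 0.13, 95% interval from -0.099 to 0.51). It was 0.075 with normal replicate 1 left out. The dimmer, 1436207_at, read 402.7, 386.9 and 340.7 in knockout kidneys, against 561.8, 470.2 and 407.8 in normal kidneys. Here all knockout arrays lay below all normal arrays, by a narrow margin, and normal replicate 1 was the highest. Its log2 difference was -0.34 (SE 0.13, 95% interval from -0.64 to -0.043; limma adjusted p = 0.394), and without normal replicate 1 it was -0.22. The mean of both probe sets differed by -0.068 (SE 0.085), so that the sign for Tcf7l1 rests on the probe set taken. The log2 ratio of the brighter to the dimmer was 0.46, 0.82 and 0.95 in the knockout, against -0.30, 0.40 and 0.49 in normal kidneys (mean difference 0.54, exact two-sided permutation p = 0.2).

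Of the adaptors, Bcl9 was lower in the mean of the knockout arrays by both of its probe sets, and neither passed. Probe set 1451574_at read 316.3, 351.9 and 348.8 in knockout replicates 1 to 3, against 399.7, 401.2 and 348.8 in normal replicates 1 to 3. Normal replicate 3 lay at the level of the knockout arrays, and the log2 difference was -0.18 (SE 0.10, 95% interval from -0.41 to 0.057). The dimmer probe set 1455565_at read 102.7, 72.8 and 72 in the knockout, against 148.7, 94.1 and 133.4 in normal kidneys. Knockout replicate 1 exceeded normal replicate 2, so these groups overlapped too, with a log2 difference of -0.60 (SE 0.22, 95% interval from -1.10 to -0.098; limma adjusted p = 0.376). This was the largest difference in size among the 16. As the mean of both probe sets, Bcl9 differed by -0.39 (SE 0.12; limma adjusted p = 0.249), the smallest adjusted p of the 8 genes by gene mean. In the fits that left out 1 array the difference ran from -0.24 to -0.13 for the brighter probe set and from -0.79 to -0.46 for the dimmer.

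Bcl9l, the paralogue that shares the docking role, gave 1 usable probe set of 3, 1419180_at. It read 85.9, 78.5 and 70.3 in knockout kidneys and 105.6, 72.8 and 69.2 in normal kidneys, a log2 difference of -0.055 (SE 0.21, 95% interval from -0.52 to 0.41). The spread among the normal arrays, with replicate 1 far above the others, was wider than the difference. The other probe sets of Bcl9l, 1438806_at and 1443700_at, read at most 6.4 in knockout and 6.5 in normal kidneys and were not tested.

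**Figure D2:**
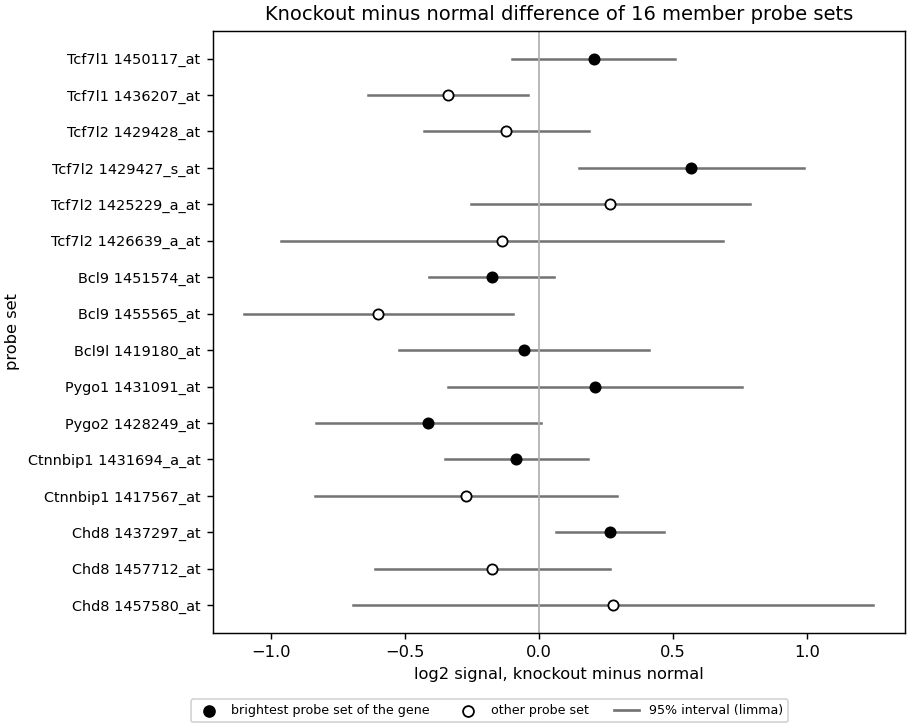
Log2 difference in signal, knockout minus normal, for the 16 member probe sets above the filter, by gene. Filled points are the brightest probe set of a gene, open points the others, and lines are 95% intervals from limma. The intervals lie apart from 0 for Tcf7l1 1436207_at, Tcf7l2 1429427_s_at, Bcl9 1455565_at and Chd8 1437297_at, before adjustment over all probe sets, and both directions occur.

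Pygo2, the more widely expressed Pygopus gene, had 1 probe set, 1428249_at. It read 307.3, 350.7 and 395 in knockout replicates 1 to 3, against 589.9, 489.4 and 347.4 in normal replicates 1 to 3. Normal replicates 1 and 2 lay above every knockout array, and normal replicate 3 lay among them. The log2 difference was -0.41 (SE 0.19, 95% interval from -0.83 to 0.0077; limma adjusted p = 0.44). It was -0.62 with normal replicate 3 left out, -0.24 with normal replicate 1 left out and -0.15 with both replicates 1 left out. Normal replicate 1 is also the array with the highest chromaffin and neural sum, whose part in the Pygo2 values was not tested.

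Pygo1 was dim by its probe set 1431091_at, at 44.9, 48.9 and 43.4 in the knockout and 42.4, 30.4 and 47.8 in normal kidneys. The groups overlapped, with normal replicate 2 the lowest array, and the log2 difference was 0.21 (SE 0.24, 95% interval from -0.34 to 0.76). Without normal replicate 2 it was 0.021.

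Related genes were then set against each other within each array, to ask whether they moved apart. The log2 ratio of Pygo1 to Pygo2 was -2.77, -2.84 and -3.19 in knockout replicates 1 to 3, against -3.80, -4.01 and -2.86 in normal replicates 1 to 3. Normal replicate 3 lay among the knockout arrays. Only the shift between groups can be read, not the ratio itself, and it was 0.62 (exact two-sided permutation p = 0.2). For Tcf7l1 to Tcf7l2, by the brightest probe sets, the shift was -0.36 (exact two-sided permutation p = 0.4), and for Bcl9 to Bcl9l it was -0.12 (exact two-sided permutation p = 0.5). After adjustment over the 3 pairs each exact permutation p was 0.5, where 0.1 is the smallest unadjusted value this design allows. Single arrays moved these shifts. Without normal replicate 2 they were 0.40 for Pygo1 to Pygo2, -0.13 for Tcf7l1 to Tcf7l2 and -0.0083 for Bcl9 to Bcl9l. With 1 array left out at a time they ran from 0.40 to 0.97 for Pygo1 to Pygo2 (highest without normal replicate 3), from -0.55 to -0.13 for Tcf7l1 to Tcf7l2 (farthest from 0 without knockout replicate 3) and from -0.28 to -0.0011 for Bcl9 to Bcl9l (without normal replicate 1 and without knockout replicate 1).

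**Figure D3:**
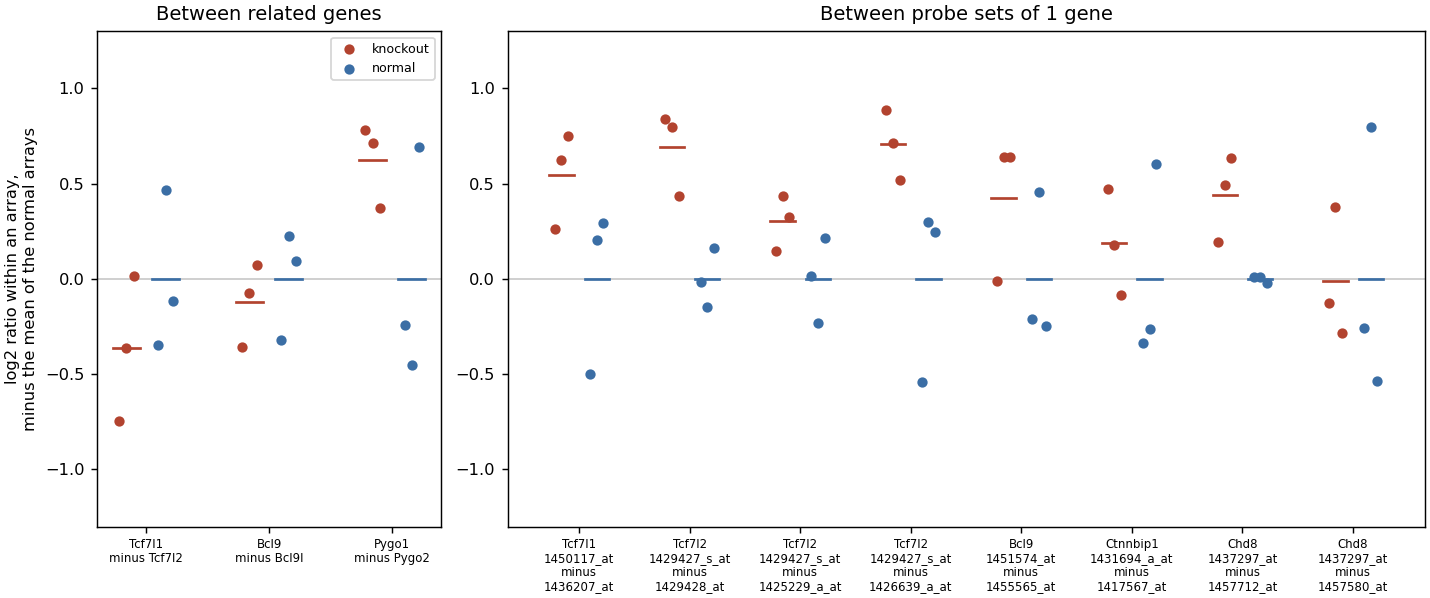
Log2 ratio of 2 probe sets within each array, minus the mean of the normal arrays, for 3 pairs of related genes (left) and for 8 pairs of probe sets of 1 gene (right). Points are arrays, knockout in red and normal in blue, and lines are group means. The groups are apart for Tcf7l2 1429427_s_at against 1429428_at and against 1426639_a_at, and for Chd8 1437297_at against 1457712_at, and overlap in the other pairs.

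Ctnnbip1 encodes ICAT, a small protein that blocks the contact of beta-catenin with TCF factors. Its brighter probe set, 1431694_a_at, read 466.2, 435.6 and 423.9 in knockout kidneys and 532.8, 401.8 and 478.8 in normal kidneys. The knockout values fell within the range of the normal ones, and the log2 difference of -0.084 (SE 0.12) had a 95% interval from -0.35 to 0.18. The other, 1417567_at, read 164.8, 188.3 and 220.4 in the knockout, against 329.4, 236.6 and 154.6 in normal kidneys, a log2 difference of -0.27 (SE 0.25). Normal arrays spanned more than the knockout arrays, with replicate 1 the highest and replicate 3 the lowest of all 6. The difference was -0.011 with normal replicate 1 left out, -0.17 with knockout replicate 1 left out and -0.56 with normal replicate 3 left out.

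Chd8 encodes a chromodomain helicase that binds beta-catenin and represses Wnt targets. Its brightest probe set, 1437297_at, read 494.4, 463.2 and 475.8 in knockout replicates 1 to 3, against 419.2, 380.2 and 393.3 in normal replicates 1 to 3. Both groups were tight and did not overlap. Mean signals were 477.8 ± 15.7 in the knockout and 397.6 ± 19.8 in normal kidneys (SD, n = 3 each), a log2 difference of 0.27 (SE 0.089, 95% interval from 0.064 to 0.47), or 1.20-fold. It did not pass over all probe sets (limma adjusted p = 0.333), and it ran from 0.23 to 0.30 in the fits that left out 1 array. The SE of 0.089 was the smallest of the 16 probe sets.

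The other Chd8 probe sets were much dimmer. Probe set 1457712_at read 77.1, 58.6 and 54.6 in the knockout and 74.1, 67.2 and 71.2 in normal kidneys (log2 difference -0.17, SE 0.19), and 1457580_at stood at 0.28 (SE 0.43). For 1457712_at the difference was -0.075 with knockout replicate 3 left out and -0.32 with knockout replicate 1 left out. The fourth, 1443900_at, read between 2.9 and 18.3 in knockout and between 8.1 and 11.8 in normal kidneys and stayed under the filter. The log2 ratio of 1437297_at to 1457712_at was 2.68, 2.98 and 3.12 in the knockout, against 2.50, 2.50 and 2.47 in normal kidneys. All knockout arrays were higher (mean shift 0.44, exact two-sided permutation p = 0.1, and 0.267 after adjustment over the 8 ratios). The groups of 1437297_at did not overlap by themselves, so this ratio is no separate support. The mean of the 3 kept probe sets differed by 0.12 (SE 0.18).

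Probe sets of 1 gene did not always share a sign. Of the 8 genes 5 had several kept probe sets, and in 3 of these 5 (Tcf7l1, Tcf7l2 and Chd8) the signs differed. The same share over all genes was not computed. Differences that are small beside their SE can take either sign, so this count is not a trait of the partners. Normal replicate 1 gave the highest signal of all 6 arrays in 8 of the 16 probe sets, all of them with a negative difference, whereas it was the highest array for 27.5% of all probe sets tested. A probe set that is highest in a normal array tends to a negative difference, so that sign is no separate result. Among the 8, probe sets of Tcf7l2 and of Ctnnbip1 share a gene, so they are not 8 independent readings.

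The genes around these partners, taken from 7 lists of nuclear pathway genes, likewise held no gene that passed. Of 69 distinct listed genes 68 were measured above the filter, each by its brightest probe set, and 0 passed, against 0.602% of all 12464 genes tested (limma, Benjamini-Hochberg). At an unadjusted limma p under 0.05 there were 13 of 68 (19.1%), 8 lower and 5 higher, where the share over all genes tested was 11.7% (5.57% lower and 6.14% higher). Their median log2 difference was -0.095, against 0.074 for the 8 member genes by brightest probe set and -0.0029 over all genes tested. The sign of the member median rested on the probe sets taken, since it was -0.10 over the 16 member probe sets.

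Among 23 chromatin and Mediator coactivators 16 were lower in the mean of the knockout arrays, 0 passed and 4 had an unadjusted p under 0.05, all lower, with a list median of -0.12. The histone acetyltransferase Crebbp read 805.2, 905.8 and 824.3 in the knockout, against 985.2, 996.5 and 951.4 in normal kidneys, with no overlap (log2 difference -0.21, SE 0.081; limma adjusted p = 0.387). One of its other probe sets had the opposite sign, at 0.39 (SE 0.27). The histone methyltransferase Kmt2a read 268, 240.3 and 186.4 in the knockout, against 385.3, 292.8 and 269.6 in normal kidneys (log2 difference -0.45, SE 0.17; limma adjusted p = 0.398). A further probe set of Kmt2a had the same sign, at -0.66 (SE 0.21).

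The 12 Groucho/TLE and other corepressors had a median of -0.073, with 0 passing, 7 lower and 5 higher. By p they were led by Tle3 at -0.33 (SE 0.13; limma adjusted p = 0.388) and Tle6 at -0.57 (SE 0.28), and both overlapped between groups. The other probe sets of Tle3 differed in sign, at -0.24 (SE 0.23), -0.085 (SE 0.27) and 0.46 (SE 0.50). The list median was -0.038 without normal replicate 1 and -0.14 without normal replicate 3. The ChiLS complex, which binds Pygopus, had 5 measured genes, with a median of -0.032 and 0 passing. Its subunit Ssbp2 stood at 0.23 (SE 0.10) by the brightest probe set, but its 3 further probe sets stood at -0.77 (SE 0.32), -0.39 (SE 0.17) and 0.44 (SE 0.14). Ssbp4 stood at -0.42 (SE 0.22). The sign of the median rested on single arrays, at 0.10 without normal replicate 1, 0.013 without knockout replicate 1 and -0.12 without normal replicate 3.

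Nuclear inhibitors of beta-catenin and TCF (11 genes, median 0.067, 0 passing) had 3 members with an unadjusted p under 0.05, all higher. Sox9, a transcription factor of the ureteric tips that can antagonise beta-catenin, had the smallest adjusted p among the 68 genes. It read 203.2, 177.1 and 207.1 in the knockout, against 145.6, 128.8 and 139.2 in normal kidneys, a log2 difference of 0.50 (SE 0.13; limma adjusted p = 0.178), and its other probe set stood at 0.56 (SE 0.14). Sox17, an endodermal and endothelial factor, stood at 0.36 (SE 0.15), while its other probe set was at -0.12 (SE 0.37). The Chd8 relatives Chd7 (-0.37, SE 0.17) and Chd9 (0.18, SE 0.12) differed in sign. For the inhibitors the median was -0.0008 without normal replicate 1, -0.023 without knockout replicate 3 and 0.015 without normal replicate 2, and for the 3 relatives of Chd8 it was 0.057 without normal replicate 1.

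For the TCF/LEF factors outside the members, Lef1 read 118.5, 86.7 and 133.1 in the knockout and 182.9, 99 and 110 in normal kidneys (log2 difference -0.18, SE 0.25). That difference was 0.089 when normal replicate 1 was left out, so its sign rested on 1 array. It was -0.0027 when knockout replicate 2 was left out, -0.31 when knockout replicate 3 was, and -0.35 and -0.28 when normal replicates 2 and 3 were. The factor Tcf7 was not analysed here. Canonical Wnt targets had a median of -0.13 over 14 measured genes, with 10 lower, 4 higher and 0 passing. At an unadjusted limma p under 0.05 there were 4, 3 lower and 1 higher. The median was 0.0046 without normal replicate 1, -0.025 without knockout replicate 2 and -0.27 without normal replicate 2. Nkd1, a feedback inhibitor, read 137.1, 156.9 and 136.1 in the knockout, against 218, 186.1 and 176.9 in normal kidneys (log2 difference -0.43, SE 0.13; limma adjusted p = 0.291). The other probe sets of Nkd1 had the same sign, at -0.16 (SE 0.16), -0.82 (SE 0.35) and -0.59 (SE 0.28). Ccnd1, which encodes cyclin D1, stood at -0.30 (SE 0.095), while its other probe sets differed in sign (0.11 and -0.34). The 1 higher gene, named after its values were seen, was Wif1, a secreted Wnt inhibitor and the target with the largest difference in size. It read 24.7, 79 and 21.4 in the knockout, against 10.7, 13.8 and 14.8 in normal kidneys, without overlap (log2 difference 1.42, SE 0.50; limma adjusted p = 0.352). Normal replicates 1 and 2 lay under the filter signal of 14.7 and normal replicate 3 barely above it. Wif1 thus passed the filter through its knockout arrays, and the lack of overlap is no separate support. Its highest array was knockout replicate 2, which also had the highest muscle sum, whose part in this value was not tested.

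**Figure D4:**
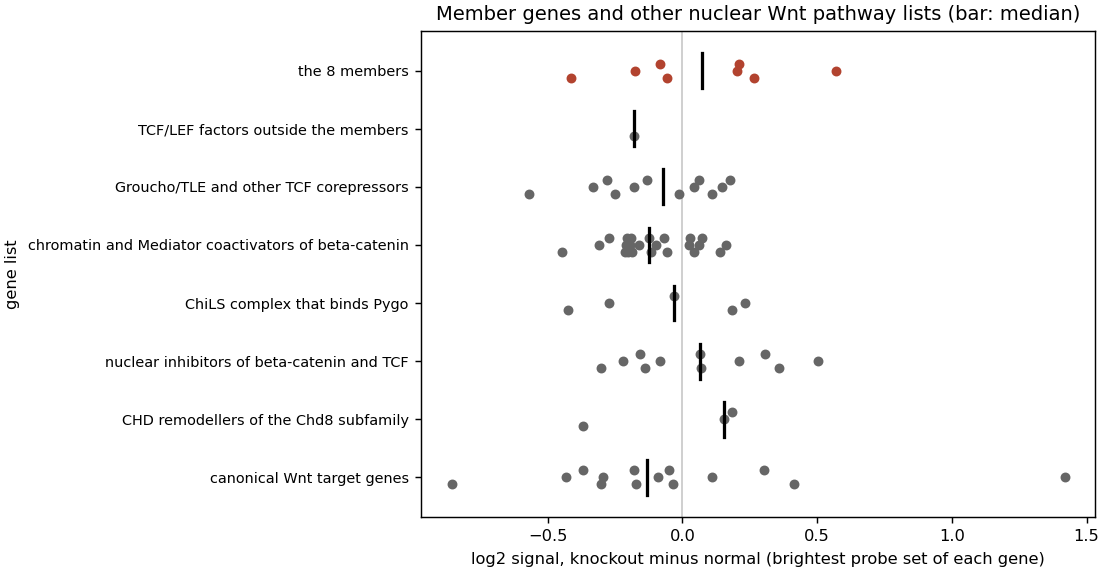
Log2 difference in signal, knockout minus normal, by the brightest probe set of each gene, for the 8 members (red, top) and 7 lists of other nuclear Wnt pathway genes (grey). Points are genes and bars are list medians, from -0.18 for the single TCF/LEF gene measured to 0.15 for the Chd8 relatives, with 0.074 for the members. Over the 16 member probe sets above the filter, not drawn here, the median was -0.10. Without normal replicate 1 the TCF/LEF value was 0.089, the Chd8 relatives' median 0.057, the ChiLS median 0.10, the inhibitors' median -0.0008 and the Wnt targets' median 0.0046.

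The genes most like each member over the 6 arrays were ranked by Pearson's r of log2 signal among 12456 other genes, as a description only. For Tcf7l2 these were Nek4 (r = 0.995) and Bcap29 (r = 0.993), which differed by 0.25 and 0.22 between groups on the log2 scale. For Chd8 they were Ccrl2 (r = 0.995) and Idua (r = 0.994), for Pygo2 Psmd3 (r = 0.996) and Rab2a (r = 0.995), and for Bcl9 Tonsl (r = 0.995) and Sipa1l2 (r = 0.993). Tcf7l1 had Zc3hc1 (r = 0.996) and 4921524J17Rik (r = 0.994), Bcl9l Nefl (r = 0.993) and Ifi27 (r = 0.99), Pygo1 Xiap and Purb (r = 0.993 each), and Ctnnbip1 Slc25a29 (r = 0.987) and Arrdc2 (r = 0.983). All points share the same 6 arrays and their scaling. Over 6 arrays, the highest r among 12456 genes can lie near 1 without any link between 2 genes. Ccrl2 read 14.2, 9.3 and 10.2 in normal replicates 1 to 3, under the filter signal of 14.7, and was kept through its knockout arrays.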

How the data were processed

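Whole embryonic kidneys were measured on 6 single-colour Affymetrix arrays. Each probe set has 1 deposited signal intensity per array on a linear scale, for which the submitters' processing notes name MAS5, with no version or settings. Array medians ran from 24.9 to 32.1, a span of 0.37 on the log2 scale, so no further scaling was applied, and the 15 values at 0 were raised to 1.7 (the 10th percentile of values above 0) before taking log2. After 64 control probe sets were removed, those with a mean log2 signal above the 40th percentile (a signal of 14.7) were kept.

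Knockout and normal arrays were fitted in limma 3.58.1 (R 4.3.3), using lmFit and eBayes with an intensity trend, and Benjamini-Hochberg adjustment over 27022 probe sets. Ratios within arrays were compared by exact permutation. On simulated data for this comparison, over 27022 probe sets, the fit recovered 28.4% of 1.5-fold, 50.7% of 2-fold and 90.9% of 4-fold changes, with 9 false calls. The number of arrays limits the precision. Promoter windows came from RefSeq.

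The members and lists were chosen with earlier results of these data known. All member probe sets are named. Of each pathway list the text names passing genes or, with none, the 2 with the smallest p, and for each member the 2 genes most like it. Listed genes and markers are given by the brightest kept probe set. Alternatives covered scaling, filters, a pseudocount of 16, variance models, array weights, a replicate block, gene means and leaving out arrays.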

Additional observations from a re-analysis of the deposited data

How the results depend on the processing

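Of 260 values of member probe sets or gene means under the alternatives none passed (lowest limma adjusted p = 0.154), and 250 kept their sign. The 10 that changed it were all small. Without normal replicate 1 these were Tcf7l2 1426639_a_at (0.18), Bcl9l (0.14) and Ctnnbip1 1431694_a_at (0.0096), without normal replicate 1 and knockout replicate 1, an alternative chosen after seeing the data, Tcf7l2 1426639_a_at (0.17), Bcl9l (0.066) and Ctnnbip1 1417567_at (0.091), without knockout replicate 3 and with array weights Bcl9l (0.02 and 0.051), without normal replicate 2 Chd8 1457580_at (-0.15), and by gene mean Tcf7l1 (-0.068). With 1 array left out at a time, the difference ran from -0.42 to 0.18 for Tcf7l2 1426639_a_at, from -0.17 to 0.14 for Bcl9l, from -0.19 to 0.0096 for Ctnnbip1 1431694_a_at and from -0.15 to 0.54 for Chd8 1457580_at. The cause was not tested. The count of all probe sets that passed was 434 with median centring, 41 without the intensity trend, 29 without both replicates 1, and from 47 to 149 with 1 array left out. For the fits with fewer arrays, the smaller sample is part of the change. The number of member probe sets that passed was 0 under every alternative run, and that of pathway genes 0 without the filter, with median centring and with arrays left out. With median centring the smallest limma adjusted p among the pathway genes was 0.0684, near the threshold, against 0.178 in the main fit.

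The labels number replicates 1 to 3 in both groups. Deviations from the group means correlated at 0.083, -0.108 and -0.201 between arrays of the same number. Knockout replicate 3 correlated best with normal replicate 2. With 3 arrays per group, such correlations cannot tell whether arrays of the same number were prepared together. Both replicates 1 had the highest chromaffin and neural sum of their group. With the replicate block 109 of all probe sets passed and 0 members. Signals near the floor, as for Bcl9l 1443700_at, have no measured order.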
